A study of Mus musculus with 15 samples.

Results

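Diphenyl iodonium (DPI) was added to dendritic cells exposed to dinitrofluorobenzene (DNFB), and the RNA of these cells was compared with that of cells given DNFB alone. The comparison rests on 6 of the 15 arrays of the series, the 3 labelled DPI + DNFB and the 3 labelled DNFB, chosen by their labels. The other 9 arrays, 3 each of non-treated, H2O2 and DPI cells, entered the same fit, and the DPI and non-treated arrays (6 arrays) gave the effect of DPI without DNFB. All cells were of 1 dendritic cell line, established from newborn A/J mouse epidermis, so every group shares this single inbred background and line. The doses, the exposure times and any solvent given to the controls are not stated in the sources used here. Whether the 3 arrays of a group stem from independent cultures is not given, and p-values here reflect only the array-to-array spread, technical or not.

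DNFB is a contact allergen that binds to proteins and thiols, and in the skin such haptens drive dendritic cells to mature, to display costimulatory molecules and to prime T cells. DPI blocks flavin-containing enzymes, among them the NADPH oxidases that make superoxide, and also nitric oxide synthase and complex I of the mitochondrial respiratory chain. Thiol-reactive chemicals and oxidants act on KEAP1, the adaptor that keeps the transcription factor NRF2 low, and NRF2 then switches on genes for glutathione and thioredoxin metabolism. The series asks which transcripts follow reactive oxygen species, and the DPI + DNFB arrays are its test of the allergen response under a flavoenzyme inhibitor.

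Values are signal intensities, brought to the same 2% trimmed mean of 500 on every array, and differences are given on the log2 scale after adding 15 to each signal. An error after ± is the SE of the fit for 3 against 3 arrays unless an SD is named. Of 12701 genes tested, 2911 (22.9%) were higher and 2706 (21.3%) lower with DPI + DNFB than with DNFB at an adjusted p below 0.05, 5617 (44.2%) in all. At least 2-fold differences were passed by 1117 higher and 966 lower genes, and at least 8-fold by 7 and 29. The median difference over all genes was 0.10, with quartiles at -0.39 and 0.58, and the median SE was 0.197. The DPI + DNFB and DNFB arrays did not overlap, that is, the groups were apart, for 6639 of the 12701 genes, 5348 of which passed.

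The RNA of the DPI + DNFB arrays differed in its control probe sets. The 3' to 5' signal ratio of beta-actin, a measure of RNA integrity and of complete copying, was 2.07, 1.50 and 2.29 on the DPI + DNFB arrays and 1.32, 1.53 and 1.21 on the DNFB arrays. The groups overlapped through DPI + DNFB replicate 2 and DNFB replicate 2 (exact permutation test, two-sided, p = 0.2, where 0.1 is the smallest p that 3 against 3 arrays allow). The Gapdh ratio was 1.10 ± 0.16 (SD, n = 3) against 0.846 ± 0.054 (SD, n = 3), with no overlap (exact permutation p = 0.1). The same ratio of dap, a bacterial transcript spiked into the RNA before copying, was 9.87 ± 2.83 (SD, n = 3) against 10.3 ± 3.5 (SD, n = 3) (exact permutation p = 1).

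Spiked transcripts were also brighter relative to cellular RNA. Signal of the hybridization spikes, added to the finished cRNA, averaged 13379 with DPI + DNFB and 6698 with DNFB, a ratio of 2.0 (exact permutation p = 0.1). Signal of the poly-A spikes, added to the total RNA, averaged 1261 and 436, a ratio of 2.89 (exact permutation p = 0.1). Each of the 3 DPI + DNFB arrays lay above the highest of the other 12 arrays in both spike signals. For the hybridization spikes, DPI + DNFB replicate 2 (9776) was nearly level with H2O2 replicate 3 (9766). Whether fewer or shorter labelled cellular transcripts account for this cannot be told apart from a difference in the amount of spike added, and the part of RNA quality in the results below was not tested beyond the values given.

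**Figure D1:**
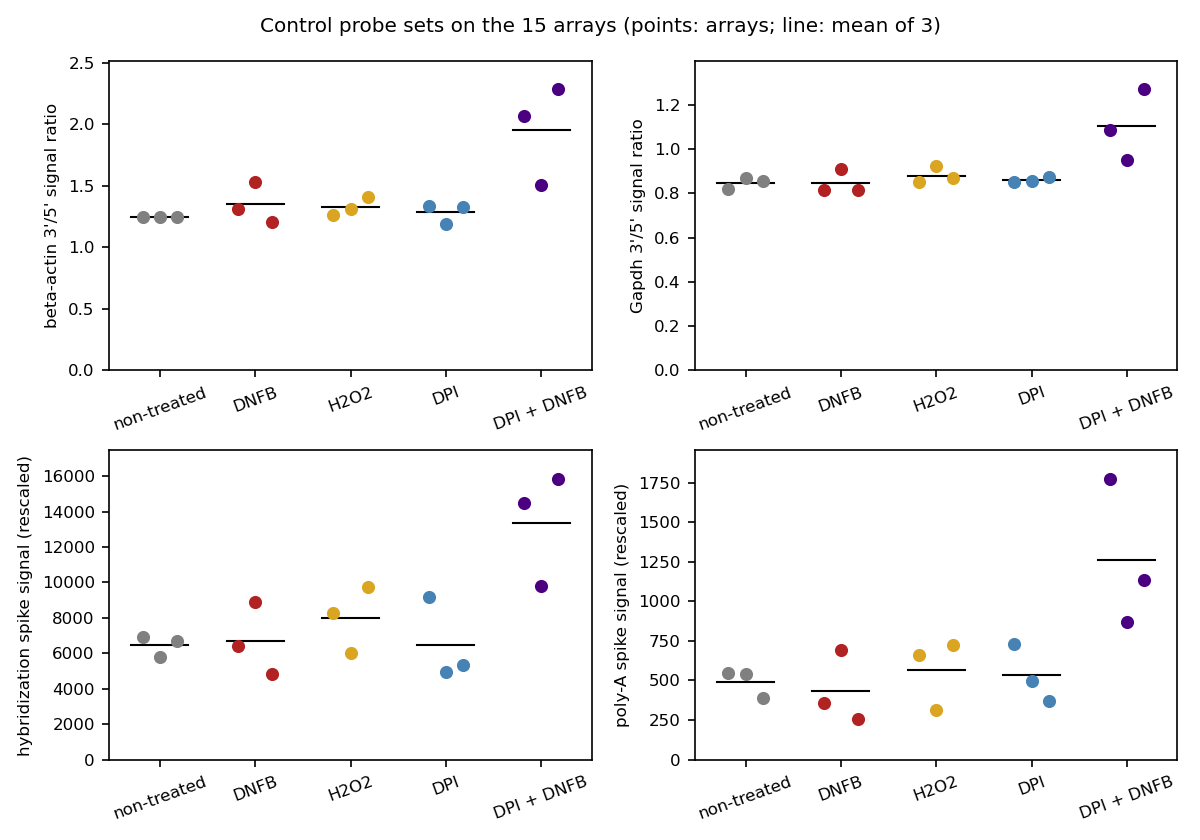
The 3'/5' signal ratios of beta-actin and Gapdh (upper panels, no unit) and the rescaled signal of hybridization and poly-A spikes (lower panels, intensity) are shown for each of the 15 arrays by group, with the mean of 3 arrays as a line. The DPI + DNFB arrays have beta-actin ratios of 2.07, 1.50 and 2.29 and the highest spike signals.

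The spikes set how the direction of a gene may be read. Scaling to equal hybridization spikes moved the median difference of all genes from 0.10 to -0.85, and scaling to equal poly-A spikes moved it to -1.39. Under these scalings 112 and 15 genes passed on the higher side and 6043 and 8083 on the lower side, and centring each array on its median gave 1617 higher and 3812 lower (29.8% of calls higher, against 51.8%). The values as deposited, before rescaling, gave 658 and 171. All directions below are therefore relative to the bulk of each array's signal. For each list with more higher than lower members, the cell type markers excepted, its medians under both spike scalings are given. The named genes described as lower had a negative difference under both spike scalings and under median centring.

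The RNA ratios were also entered as covariates of the fit. With the beta-actin ratio 1435 genes were higher and 1469 lower, and with the Gapdh ratio 1254 and 1261. Of the genes named below, the closing section included, the beta-actin covariate ended the calls of Atf3, Bik, C1qb, Calr, Ccl17, Cd40, Cenpa, Crtam, Cxcl10, Fut7, Hpgds, Hspa1b, Lmnb2, Mmp9, Mrpl12, Msmo1, Muc13, Mycn, Ncf4, Nqo1, Pfkfb3, Pold1, Rel, Relb, Sgms2, Sqle, Tifab, Tnfaip3 and Tnfsf4. The Gapdh covariate ended those of Atf3, Bik, C1qa, C1qb, Ccl17, Cd40, Cenpa, Chtf18, Crtam, Cxcl10, Cxcr4, Dnajb1, Dusp1, Fut7, Hpgds, Hspa1b, Hspa8, Kcne3, Lmnb2, Mmp9, Mrpl12, Msmo1, Muc13, Mycn, Ncf4, Nqo1, Pfkfb3, Pold1, Rel, Relb, Sgms2, Sqle, Tifab, Tnfaip3 and Tnfsf4. With DPI + DNFB replicate 2, whose beta-actin ratio lay within the range of the other groups, as the only array of its group, 1740 genes were higher and 1912 lower, and the calls of Cd40, Cenpa, Cxcl10, Dusp1, Fut7, Hspa1b, Kcne3, Lmnb2, Mmp9, Msmo1, Muc13, Mycn, Ncf4, Nqo1, Pfkfb3, Sgms2, Spaca4, Sqle, Tifab and Tnfaip3 ended. That fit assumes that the single array varies like those of the other groups.

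Genes of the NRF2 and glutathione response were mostly lower, some by more than 10-fold. Of 31 tested, 19 were lower, 9 higher and 3 did not pass, with a median difference of -0.77 against 0.10 over all genes. Sulfiredoxin (Srxn1), which repairs over-oxidized peroxiredoxins, had signals of 14527, 13619.8 and 13680.5 with DNFB and 341, 367 and 383 with DPI + DNFB, 36.9-fold lower (-5.21 ± 0.13, adjusted p = 4.06e-16). Its arrays with DPI + DNFB lay at the level of DPI alone (383) and below the non-treated level (1535).

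Heme oxygenase 1 (Hmox1), which breaks down heme, fell from 14672, 10850.3 and 9082 to 1157, 889 and 403 (-3.89 ± 0.28, adjusted p = 2.17e-09). Non-treated cells had a mean of 1113 and DPI cells 1069.7, so the 2 groups without DNFB and the DPI + DNFB group were all far below DNFB alone. Gclm, the modifier subunit of the enzyme that starts glutathione synthesis, was 9906, 7828 and 9008 with DNFB and 1643, 1452 and 1816 with DPI + DNFB (-2.43 ± 0.14, adjusted p = 2.02e-10). Its catalytic partner Gclc differed by -2.09 ± 0.13, and biliverdin reductase B (Blvrb), which acts after heme breakdown, by -2.46 ± 0.21. Slc7a11, the cystine importer, went from 884, 939.6 and 631 to 196, 179.8 and 108 (-2.26 ± 0.26, adjusted p = 9.39e-07), without overlap.

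Thioredoxin reductase (Txnrd1) fell by 2.17 on the log2 scale, from 15578, 15317 and 14239.9 to 3813, 2944 and 3282 (adjusted p = 3.58e-11). The autophagy receptor Sqstm1, at 19202, 15742 and 18147 with DNFB, was 5.81-fold lower (-2.54 ± 0.12) and returned near its non-treated level of 3549. The quinone reductase Nqo1 was dim, with 213, 145 and 193 against 10.7, 79.1 and 11.6 (-2.29 ± 0.55, adjusted p = 0.00199). Its call rested on the 2 DPI + DNFB arrays with high beta-actin ratios: with replicate 2 alone in its group the difference was -1.06 (adjusted p = 0.232), and with the beta-actin covariate -0.91 (adjusted p = 0.427).

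The regulators themselves were lower too: the gene for NRF2 (Nfe2l2) differed by -0.76 ± 0.10 and Keap1 by -0.67 ± 0.14. Among the higher members was transketolase (Tkt, 1.18 ± 0.14), an enzyme of the pentose phosphate pathway, which turned to -0.42 with poly-A spikes. The count of lower members was 16 with DPI + DNFB replicate 2 alone in its group and 15 with the beta-actin covariate, while the 9 higher members became 2 in both and 4 without DPI + DNFB replicate 3.

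**Figure D2:**
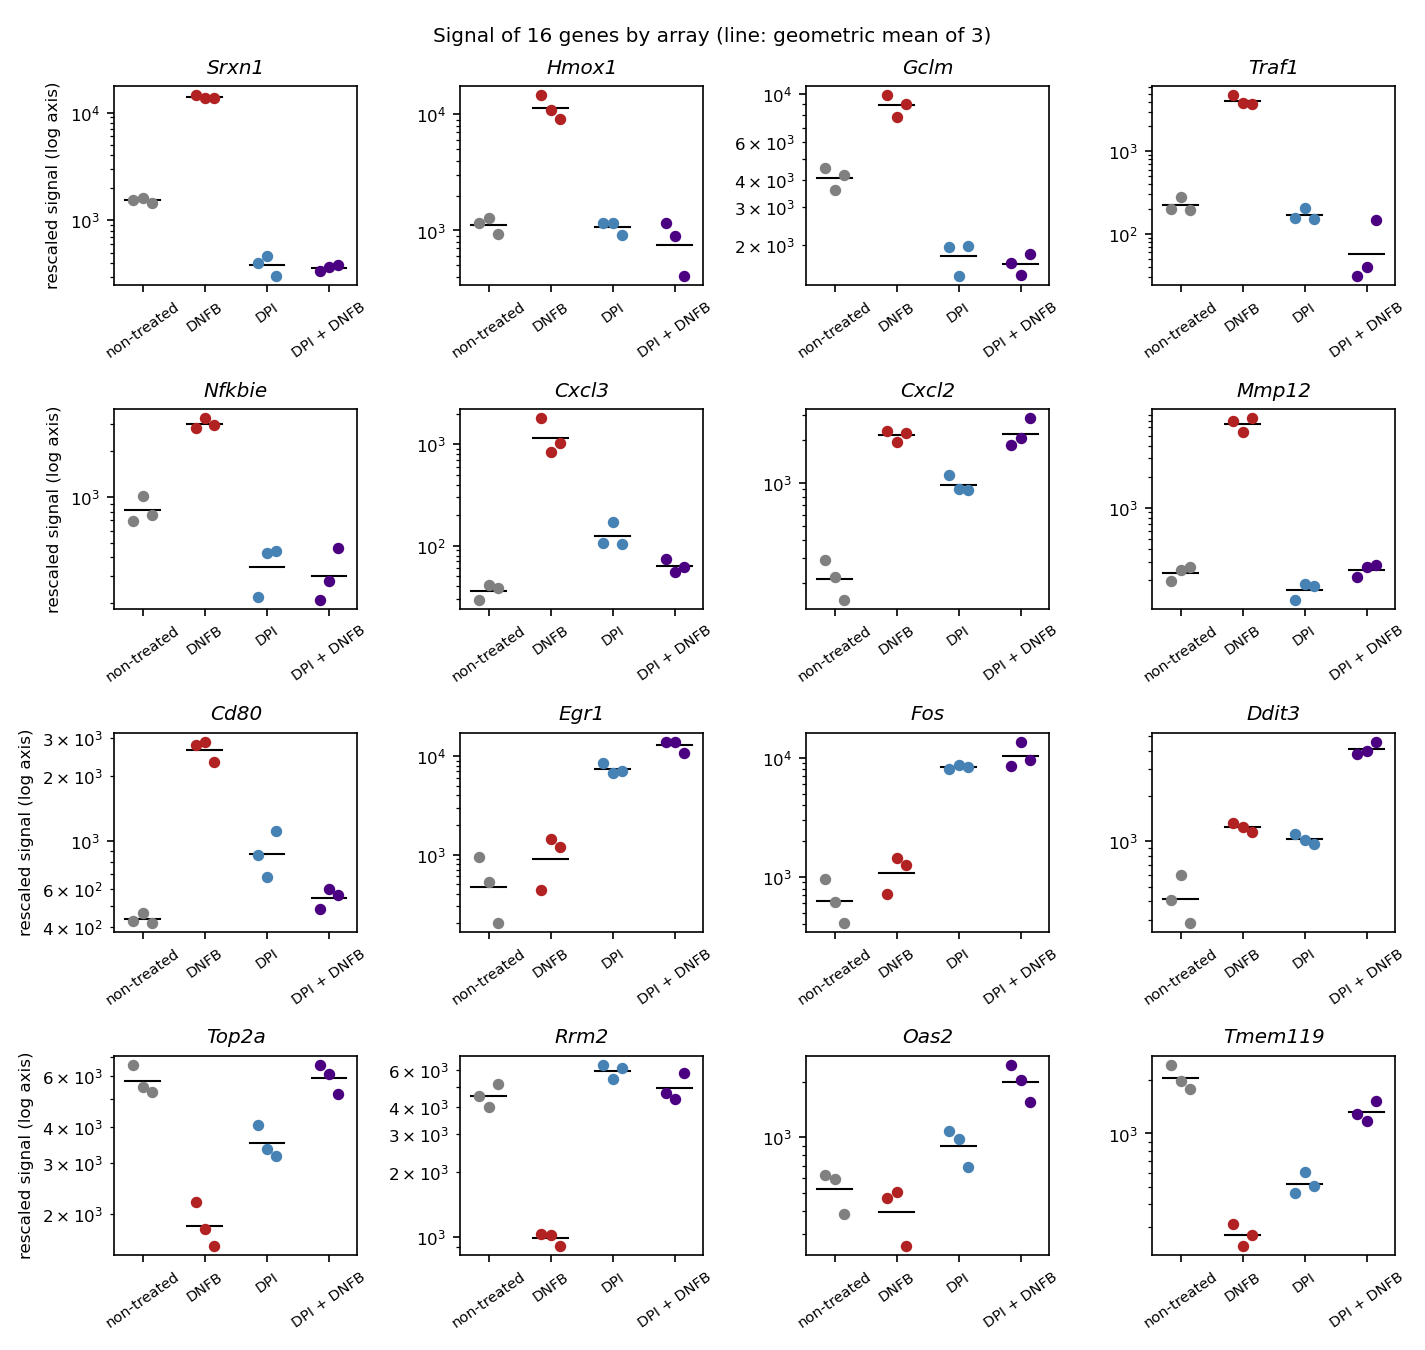
Rescaled signal (log axis) is shown for 16 genes on the non-treated, DNFB, DPI and DPI + DNFB arrays, each point an array and each line the geometric mean of 3. Srxn1, Hmox1, Gclm, Traf1, Nfkbie, Cxcl3, Mmp12 and Cd80 are high with DNFB and low with DPI + DNFB, Cxcl2 is at 2146 and 2194, and Egr1 and Fos are high in both groups given DPI.

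Promoters are shown for members of the groups that moved, to set their sequence beside the values. Each is the 160 bases before a RefSeq transcription start in build GRCm38.p6, 5' to 3' on the gene's strand, with the motif searched on both strands in capitals. For each gene the first promoter with the motif in these bases was taken, so its presence there was set by the choice. Txnrd1 has 3 promoters and Egr2 5, and each other gene shown has 1. For Txnrd1 (chr10:82859046-82859205, plus strand) the capitals mark the antioxidant response element core TGACNNNGC, the site that NRF2 binds.
Txnrd1: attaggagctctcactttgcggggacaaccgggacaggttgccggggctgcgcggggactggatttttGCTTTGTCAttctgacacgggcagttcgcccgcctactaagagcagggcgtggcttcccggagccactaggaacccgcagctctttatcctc
That core was found in the 250 bases before the start in 7 of 36 promoters of 27 listed genes (19.4%) and in 10.2% of all 32851 promoters. Among listed genes that were lower it was in 4 of 19 promoters, and among those that were higher in 2 of 13. A match is a description of letters in this window and not a mapped binding site.

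Most NF-kB subunits and inhibitors fell. NF-kB transcription factors carry inflammatory signals in dendritic cells, and several of their own subunits and inhibitors are also their targets. Of 15 tested genes, 11 were lower and 1 was higher, with a median of -0.85. Traf1, an adaptor of TNF receptors, fell from 4797, 3891 and 3743 to 30.6, 39.6 and 147 (-5.81 ± 0.32, adjusted p = 9.17e-11). Where signals lie under 50, as on 2 of these arrays and for other genes below, the size of a difference is uncertain and the added 15 draws it toward 0. All 3 DPI + DNFB arrays lay below the non-treated mean of 223 and the DPI mean of 169.

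The inhibitor Nfkbie was 2823, 3288 and 2971 with DNFB and 211, 281 and 462 with DPI + DNFB (-3.26 ± 0.25, adjusted p = 7.14e-09). The cofactor Bcl3 was 900.4, 1059 and 956 and 163, 41.6 and 175 (-2.99 ± 0.34, adjusted p = 7.54e-07). The subunits Rel (-1.65 ± 0.32), Rela (-1.36 ± 0.12) and Relb (-0.85 ± 0.20) were lower. Nfkb2 gave 0.28 ± 0.18 without passing, and passed as higher without DPI + DNFB replicate 2 (0.56, adjusted p = 0.00333), which made 2 higher members. The inhibitor genes Nfkbia and Nfkbiz differed in their values from Nfkbie: Nfkbia gave -0.02 ± 0.13 and Nfkbiz -0.05 ± 0.15, neither passing (Nfkbia passed as lower with quantile normalization, -0.32, adjusted p = 0.027), and the deubiquitinase Tnfaip3 was higher by 0.44 ± 0.16. The call for Tnfaip3, the single higher member, ended without DNFB replicate 1 or 3 and without DPI + DNFB replicate 1 or 3, each of which left 0 higher members.

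Cytokines and chemokines split in both directions, with 6 higher and 7 lower of 27 tested, about the shares over all genes (22.9% and 21.3%). Cxcl3, a neutrophil attractant, went from 1795, 834 and 1032 to 73.5, 55.7 and 61.7 (15-fold lower, -3.90 ± 0.31, adjusted p = 1.02e-08). Il23a, a subunit of the cytokine that sustains Th17 cells, went from 469.7, 374 and 280.3 to 42.9, 20.8 and 36.7 (-3.01 ± 0.39, adjusted p = 3.33e-06). Both groups of arrays were apart for these 2 genes. Csf1 (-1.72 ± 0.19) and Vegfa (-1.50 ± 0.20), growth factors of macrophages and of vessels, were lower as well.

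The neighbouring chemokine Cxcl2 did not follow Cxcl3. Its signals were 2284, 1934 and 2237 with DNFB and 1822, 2053 and 2822 with DPI + DNFB (0.03 ± 0.19, 95% interval -0.37 to 0.44, adjusted p = 0.913), and the groups overlapped. Il1b likewise gave 1470.1, 692 and 932 and 1027, 980.3 and 949 (95% interval -0.47 to 0.48, adjusted p = 0.993). Cxcl10, an attractant of T cells, gave 427, 496 and 660.4 and 261, 326 and 232 (-0.91 ± 0.33, adjusted p = 0.0314), but its call ended without DNFB replicate 2 (-0.94) or 3 (-0.74) and without DPI + DNFB replicate 1 (-0.88) or 3 (-0.80).

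On the higher side stood Hbegf, an EGF receptor ligand, with 296, 451 and 419 against 2270.5, 2646 and 2076 (2.55 ± 0.21, adjusted p = 1.32e-08). The monocyte attractant Ccl2 went from 407, 402 and 475 to 1944, 1978 and 1495 (2.03 ± 0.22, adjusted p = 4.16e-07), with the groups apart. Ccl3 (1.70 ± 0.26) and Ccl17 (1.34 ± 0.22) were higher, while Tnf (-0.42 ± 0.46) did not pass. With hybridization-spike scaling 2 members of this list were higher, and with poly-A-spike scaling 0.

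The promoters of Cxcl3 (chr5:90785941-90786100, plus strand) and Cxcl2 (chr5:90903739-90903898, plus strand) are shown together because the genes lie close on chromosome 5 and differed in their values. Capitals mark the NF-kB motif.
Cxcl3: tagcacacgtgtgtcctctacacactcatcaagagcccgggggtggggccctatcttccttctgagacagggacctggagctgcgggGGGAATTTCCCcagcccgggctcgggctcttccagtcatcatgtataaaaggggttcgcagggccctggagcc
Cxcl2: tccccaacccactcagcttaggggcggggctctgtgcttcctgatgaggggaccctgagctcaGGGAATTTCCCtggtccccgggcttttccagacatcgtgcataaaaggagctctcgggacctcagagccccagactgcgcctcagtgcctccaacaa
Both hold the motif 2 times, as overlapping matches on the 2 strands of an identical run, ending at position -63 from the start in Cxcl3 and -87 in Cxcl2. The motif was found in 8 of 18 promoters of 12 NF-kB list genes and in 3.90% of all promoters. Among list genes that were lower it was in 3 of 12 promoters, and for the higher gene in 1 of 2.

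Maturation and costimulatory molecules were mostly lower, 10 of 16 tested with 4 higher and a median of -0.77. Cd80, a ligand of CD28 on T cells, was 2800, 2899 and 2320.4 with DNFB and 484, 599 and 559.6 with DPI + DNFB (4.77-fold lower, -2.26 ± 0.16, adjusted p = 1.99e-09). Cd86, the other CD28 ligand, was 4307, 4981 and 3475 and 2010.2, 1693 and 2496 (-1.04 ± 0.16, adjusted p = 2.71e-05). The maturation marker Cd83 was 2754, 3299 and 2869.7 and 1742, 1618 and 1887 (-0.76 ± 0.13, adjusted p = 0.000108). The groups were apart for all 3, but the levels with DPI + DNFB differed: Cd80 came close to its non-treated mean (434), Cd86 lay below it (2839.5), and Cd83 stayed above it (536).

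Cd40, the receptor for T cell help, differed little (-0.40 ± 0.14, adjusted p = 0.023). Its call ended without DNFB replicate 1 (-0.36) and without DPI + DNFB replicate 1 (-0.38) or 2 (-0.38). Tnfsf4, the OX40 ligand, was lower by 2.20 and Ccr1, a receptor of inflammatory chemokines, by 1.78, while the chemokine receptor Cxcr4 (1.07 ± 0.28) was higher, turning to -0.46 with poly-A spikes. With the beta-actin covariate 6 members were lower and 1 higher. Langerin (Cd207), the receptor that forms Birbeck granules in Langerhans cells, was 933, 1088 and 951 with DNFB and 56.3, 29.0 and 25.9 with DPI + DNFB (-4.31 ± 0.44, adjusted p = 1.82e-07).

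Several genes of antigen presentation were higher. Of 16 genes of MHC class II and class I presentation 9 were higher and 0 lower, with a median of 0.41 (-0.60 with the hybridization-spike scaling and -1.18 with the poly-A-spike scaling). The immunoproteasome subunits Psmb9 (2721, 2378 and 2631 against 6679.8, 7921 and 7501, 1.51 ± 0.11) and Psmb8 (1.43 ± 0.15), which cut peptides for class I, led the list. H2-DMa, which loads peptides onto class II, was 1.11 ± 0.13 and the invariant chain Cd74 0.86 ± 0.13. The class II chain H2-Aa gave 0.19 ± 0.13 and did not pass. Median centring gave 6 higher and 2 lower members. Quantile normalization gave 6 higher and 3 lower with a median of -0.016, ended the call of Cd74 (0.03, adjusted p = 0.843) and turned H2-Aa lower (-0.46, adjusted p = 0.00137).

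Several secreted and surface proteases were lower. Of 13 matrix metalloproteinases and partners 6 were lower and 1 higher, beside 21.3% and 22.9% over all genes. Mmp12, an elastase of macrophages, was 6980.4, 5439 and 7351 with DNFB and 215, 265 and 275 with DPI + DNFB (24.7-fold lower, -4.63 ± 0.17, adjusted p = 3.88e-13), close to its non-treated mean of 233. Mmp10 was 1191, 1057 and 1110.2 and 149.7, 107 and 200 (-2.80 ± 0.42, adjusted p = 1.76e-05). Mmp13 (-2.66 ± 0.32) and the urokinase receptor Plaur (-2.80 ± 0.20) were lower, and Mmp9 was the single higher member (0.82 ± 0.20), turning to -0.15 and -0.70 with the spike scalings.

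**Figure D3:**
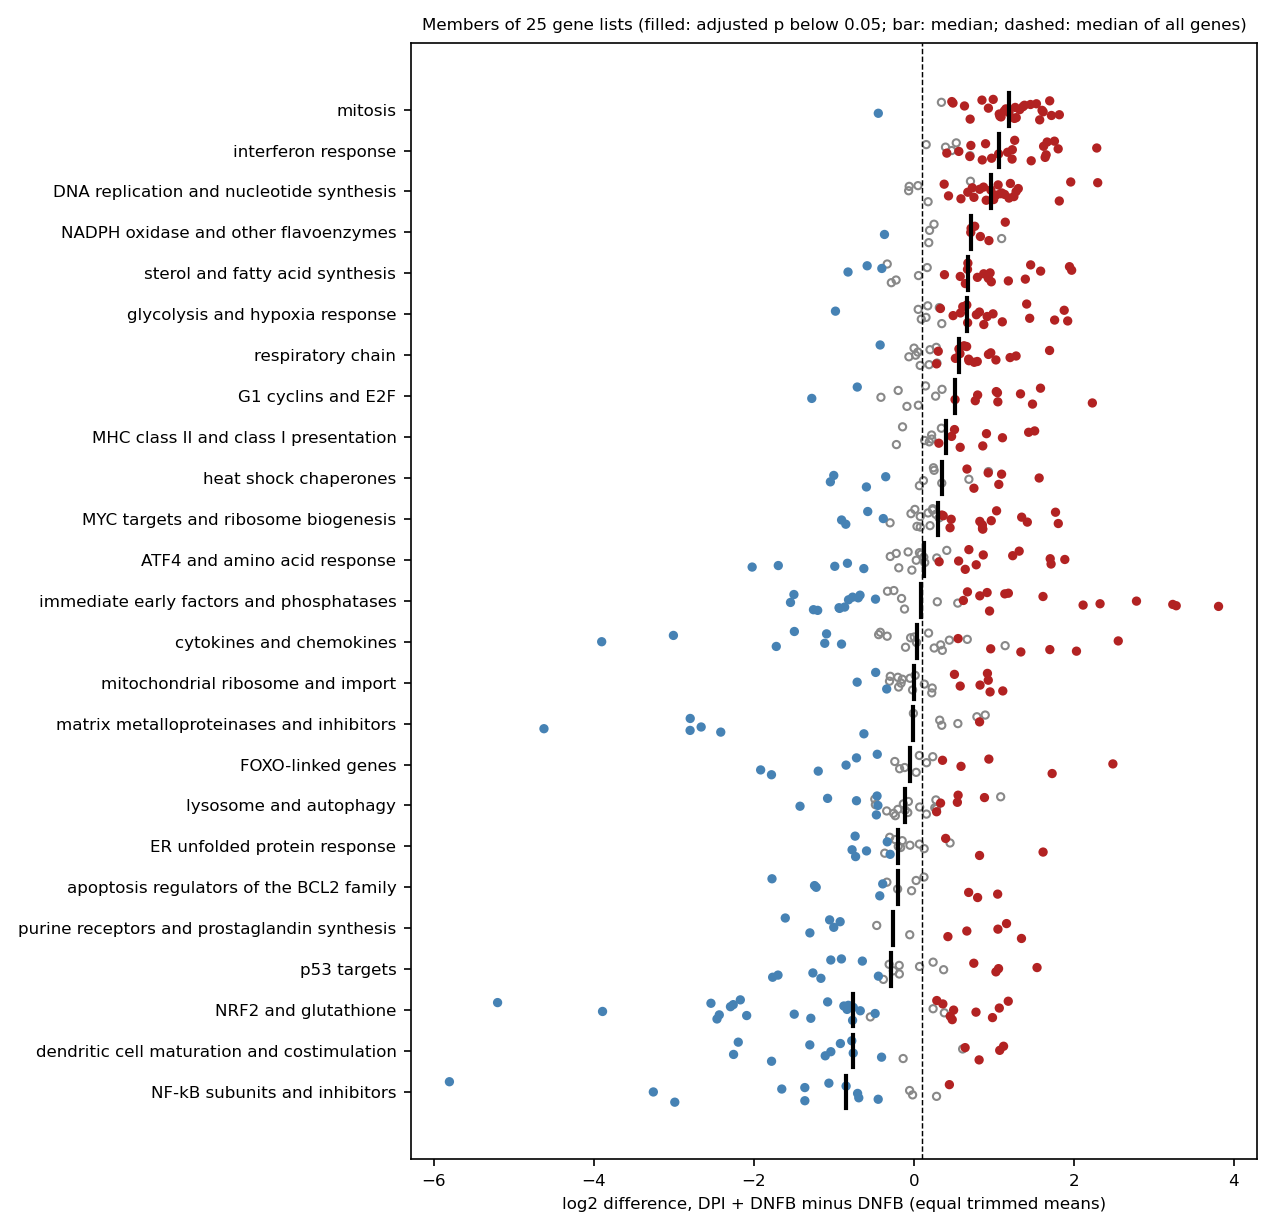
Log2 differences (DPI + DNFB minus DNFB) of the tested members of 25 gene lists, ordered by list median. Filled points passed at an adjusted p below 0.05 (red higher, blue lower), bars are list medians and the dashed line is the median of all genes at 0.10; the medians of the upper lists drop to 0.19 with the hybridization-spike scaling and -0.38 with the poly-A-spike scaling for mitosis.

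Immediate early factors included the largest rises of the comparison. These genes are switched on within minutes by kinase cascades and need no new protein. Of 32 tested, 14 were higher and 12 lower, beside 22.9% and 21.3% over all genes. The list median was 0.09 (-0.80 with the hybridization-spike scaling and -1.33 with the poly-A-spike scaling). Egr1 was 432, 1448 and 1185 with DNFB and 14104, 14116 and 10782 with DPI + DNFB (14.0-fold higher, 3.81 ± 0.42, adjusted p = 5.2e-07). Fos was 714, 1431 and 1266 and 8521, 13692 and 9638 (3.24 ± 0.28, adjusted p = 2.4e-08). Egr2 was 68.3, 123 and 123 and 1080.1, 1023 and 1259 (3.28 ± 0.21, adjusted p = 7.42e-10). Every DPI + DNFB array lay at least 5-fold above every DNFB array for these 3 genes.

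The same 3 were raised by DPI without DNFB, by 3.95 ± 0.42, 3.71 ± 0.28 and 4.14 ± 0.21. Gadd45b (2.78 ± 0.24) and Fosb (2.33 ± 0.27) were higher, and all 5 kept a positive difference with both spike scalings, where Egr1 gave 2.80 and 2.22. Other members went down: Myc from 3452, 4001 and 3374 to 1086, 1544 and 1199 (-1.50 ± 0.13, adjusted p = 1.99e-08), the MAP kinase phosphatase Dusp1 from 1875, 2720.3 and 2040.5 to 756, 1257 and 780.2 (-1.26 ± 0.23, adjusted p = 0.000188), and Fosl2 by 1.54. Jun (-0.15 ± 0.21) and Zfp36 (-0.25 ± 0.21) did not pass.

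The promoter of Egr2 (chr10:67537406-67537565, plus strand) is shown with the CArG box, the site of serum response factor, in capitals.
Egr2: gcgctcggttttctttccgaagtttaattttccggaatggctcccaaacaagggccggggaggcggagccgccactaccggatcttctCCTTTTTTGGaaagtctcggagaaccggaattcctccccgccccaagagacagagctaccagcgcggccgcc
The CArG box was present in 6 of 29 promoters of 25 listed genes (20.7%) and in 1.47% of all promoters. Among genes that were higher it was in 4 of 15 promoters, and among genes that were lower in 1 of 10.

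Stress programmes were mixed, and over all genes 22.9% were higher and 21.3% lower. Of 28 genes of the ATF4 and amino acid response 11 were higher and 5 lower, with a median of 0.13 (-0.88 with the hybridization-spike scaling and -1.46 with the poly-A-spike scaling). Ddit3, the stress factor CHOP, was 1331, 1235 and 1159 with DNFB and 3779.8, 3976 and 4593 with DPI + DNFB (1.71 ± 0.19, adjusted p = 5.76e-07), above both DPI alone (1029.9) and non-treated cells (412). Nupr1 (1.89 ± 0.18) and Phgdh (1.70 ± 0.14), the entry enzyme of serine synthesis, were higher too. Cebpb (-2.02 ± 0.14) and the glutathione-degrading Chac1 (-1.70 ± 0.27) were lower, and Atf4 itself gave -0.19 ± 0.12 without passing. Atf4 passed as lower with median centring (-0.46, adjusted p = 0.0141) and quantile normalization (-0.33, adjusted p = 0.0402).

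Atf3 was 641, 802 and 610.4 and 1251, 1288 and 1434 (0.95 ± 0.22, adjusted p = 0.00142), a direction that turned with both spike scalings (-0.05 and -0.62). In the unfolded protein response of the endoplasmic reticulum 3 of 19 were higher and 6 lower. The chaperone partner Dnajb9 was 1645, 2620.4 and 1813 and 6038, 6773 and 5569 (1.61 ± 0.16, adjusted p = 1.56e-07). The main chaperone of the compartment, Hspa5, gave 0.07 ± 0.13 and did not pass, but was lower with quantile normalization (-0.45, adjusted p = 0.00195).

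Of 17 heat shock chaperones 6 were higher and 4 lower, the latter becoming 2 without DNFB replicate 2 or 3 or DPI + DNFB replicate 1 or 3, with a median of 0.35 (-0.65 with the hybridization-spike scaling and -1.23 with the poly-A-spike scaling). Inducible Hsp70 (Hspa1b) varied widely between the DNFB arrays, 2187, 16908 and 12340.4, against 18069, 28411 and 23202 with DPI + DNFB (1.57 ± 0.51, adjusted p = 0.0173). Without DNFB replicate 1, the low array, the difference was 0.66 (adjusted p = 0.141), and without DPI + DNFB replicate 2 it was 1.41 (adjusted p = 0.0588). The constitutive Hspa8 was higher by 1.10 ± 0.16, with -0.50 under poly-A-spike scaling.

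Of 20 p53 targets 8 were lower and 4 higher (median -0.28), and 2 were higher without DNFB replicate 3 or without DPI + DNFB replicate 2. The cell cycle inhibitor Cdkn1a (p21) fell from 8038, 7251 and 6445 to 2238, 2264 and 2134 (-1.70 ± 0.13, adjusted p = 8.17e-09), with the groups apart. Its 3 arrays stayed above the non-treated mean of 1191. Btg1, an antiproliferative factor, fell from 24514, 32001 and 25185 to 7021, 9019.6 and 7888 (-1.77 ± 0.17). Mdm2 gave -0.26 ± 0.18 and did not pass, except as lower with median centring (-0.53, adjusted p = 0.0491).

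Relative to other genes, those of cell division were higher with few exceptions. Of 29 mitosis genes 27 were higher and 1 lower, with a median of 1.19 (0.19 with the hybridization-spike scaling and -0.38 with the poly-A-spike scaling). Of 29 genes of DNA replication and nucleotide synthesis 24 were higher and 0 lower, with a median of 0.96 (-0.02 with the hybridization-spike scaling and -0.59 with the poly-A-spike scaling).

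Rrm2, the ribonucleotide reductase subunit that limits supply of deoxynucleotides, was 1038, 1018 and 908 with DNFB and 4664, 4391 and 5763 with DPI + DNFB (2.30 ± 0.13, adjusted p = 9.33e-11). Topoisomerase II (Top2a) was 2208, 1769 and 1549 and 6579, 6131 and 5202 (1.70 ± 0.15, adjusted p = 3.74e-08). The anaphase activator Cdc20 was 2895, 3994 and 3791 and 12549, 10541 and 14648 (1.82 ± 0.14, adjusted p = 5.46e-09). For these 3 the groups were apart, and the DPI + DNFB means of 4905 and 5942 for Rrm2 and Top2a lay near the non-treated means of 4532 and 5769.

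Tk1 (1.96 ± 0.19), Cdc6 (1.82 ± 0.19) and the mitotic kinases Aurka (1.57 ± 0.16) and Plk1 (1.53 ± 0.17) were higher, whereas the centromere histone Cenpa was lower (-0.45 ± 0.12) and Pcna gave -0.07 ± 0.13 without passing, but passed as lower with quantile normalization (-0.33, adjusted p = 0.0253). Of 19 G1 cyclins, inhibitors and E2F factors 10 were higher and 2 lower, with a median of 0.51 (-0.49 with the hybridization-spike scaling and -1.07 with the poly-A-spike scaling). The spike scalings gave 1 higher and 7 lower and 0 higher and 9 lower. Cyclin E1 (Ccne1) was 317, 217 and 221 and 1563, 944 and 1225 (2.23 ± 0.24, adjusted p = 4.47e-07), while Cdk6 was lower by 1.28. Of 30 MYC targets and ribosome biogenesis genes 14 were higher and 4 lower, the latter 2 without DNFB replicate 1 or DPI + DNFB replicate 1, with a median of 0.29 (-0.71 with the hybridization-spike scaling and -1.28 with the poly-A-spike scaling), while Myc itself fell. The nucleolar protein Nop56 was 2819, 2592 and 2915 and 6714, 5898 and 8934 (1.35 ± 0.12), turning to -0.24 with poly-A spikes, and Mxd1, which competes with MYC for its partner MAX, was higher by 1.80 ± 0.25.

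The promoter of cyclin B2 (Ccnb2, 1.72 ± 0.15; chr9:70421555-70421714, minus strand) is printed because it holds the CCAAT box, the site of the factor NF-Y, 3 times.
Ccnb2: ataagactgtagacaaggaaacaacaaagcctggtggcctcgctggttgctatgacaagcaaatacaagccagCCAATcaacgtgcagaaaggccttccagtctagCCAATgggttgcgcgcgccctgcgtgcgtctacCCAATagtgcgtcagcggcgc
CCAAT, on either strand, was in 18 of 25 promoters of 24 mitosis genes (72.0%) and in 33.8% of all promoters. Among mitosis genes that were higher it was in 16 of 23 promoters, and for the lower gene in 1 of 1.

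Interferon response genes were higher in 20 of 25 and lower in 0, with a median of 1.06 (0.13 with the hybridization-spike scaling and -0.40 with the poly-A-spike scaling). Oas2, a sensor of double-stranded RNA, was 469, 509 and 258 with DNFB and 2467, 2045 and 1553 with DPI + DNFB (4.87-fold higher, 2.29 ± 0.27, adjusted p = 1.02e-06). Usp18, which restrains the interferon receptor, was 2335, 2097 and 1997 and 6614, 9667 and 5985 (1.76 ± 0.21, adjusted p = 1.38e-06). The groups were apart for both, yet Usp18 had a non-treated mean of 8395 while that of Oas2 was 525.

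This list also followed the replicate number. Its median level against the non-treated mean was highest on replicate 2 and lowest on replicate 3 in each of the 5 groups, with -0.25, -0.04 and -0.79 on the DNFB arrays and 0.60, 1.19 and 0.25 on the DPI + DNFB arrays. Without DNFB replicate 3 the count of higher members was 13, and with median centring it was 11. Ifit1 gave 0.70 ± 0.37 and did not pass. With the replicate number as a block 23 members were higher and Ifit1 passed (adjusted p = 0.0213).

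Oas1a, a second sensor of this family, was 2131, 2493 and 1573 with DNFB and 7841, 8595 and 5355 with DPI + DNFB (1.80 ± 0.28, adjusted p = 2.45e-05). Its promoter (chr5:120907526-120907685, minus strand) is shown for the interferon-stimulated response element, searched as GAAANNGAAA and found 2 times in overlap.
Oas1a: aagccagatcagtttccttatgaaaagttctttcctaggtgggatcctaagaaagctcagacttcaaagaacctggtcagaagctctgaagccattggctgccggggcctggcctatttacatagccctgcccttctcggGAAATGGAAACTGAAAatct
The element was in 8 of 27 promoters of 20 listed genes (29.6%) and in 2.98% of all promoters. Among listed genes that were higher it was in 5 of 20 promoters.

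**Figure D4:**
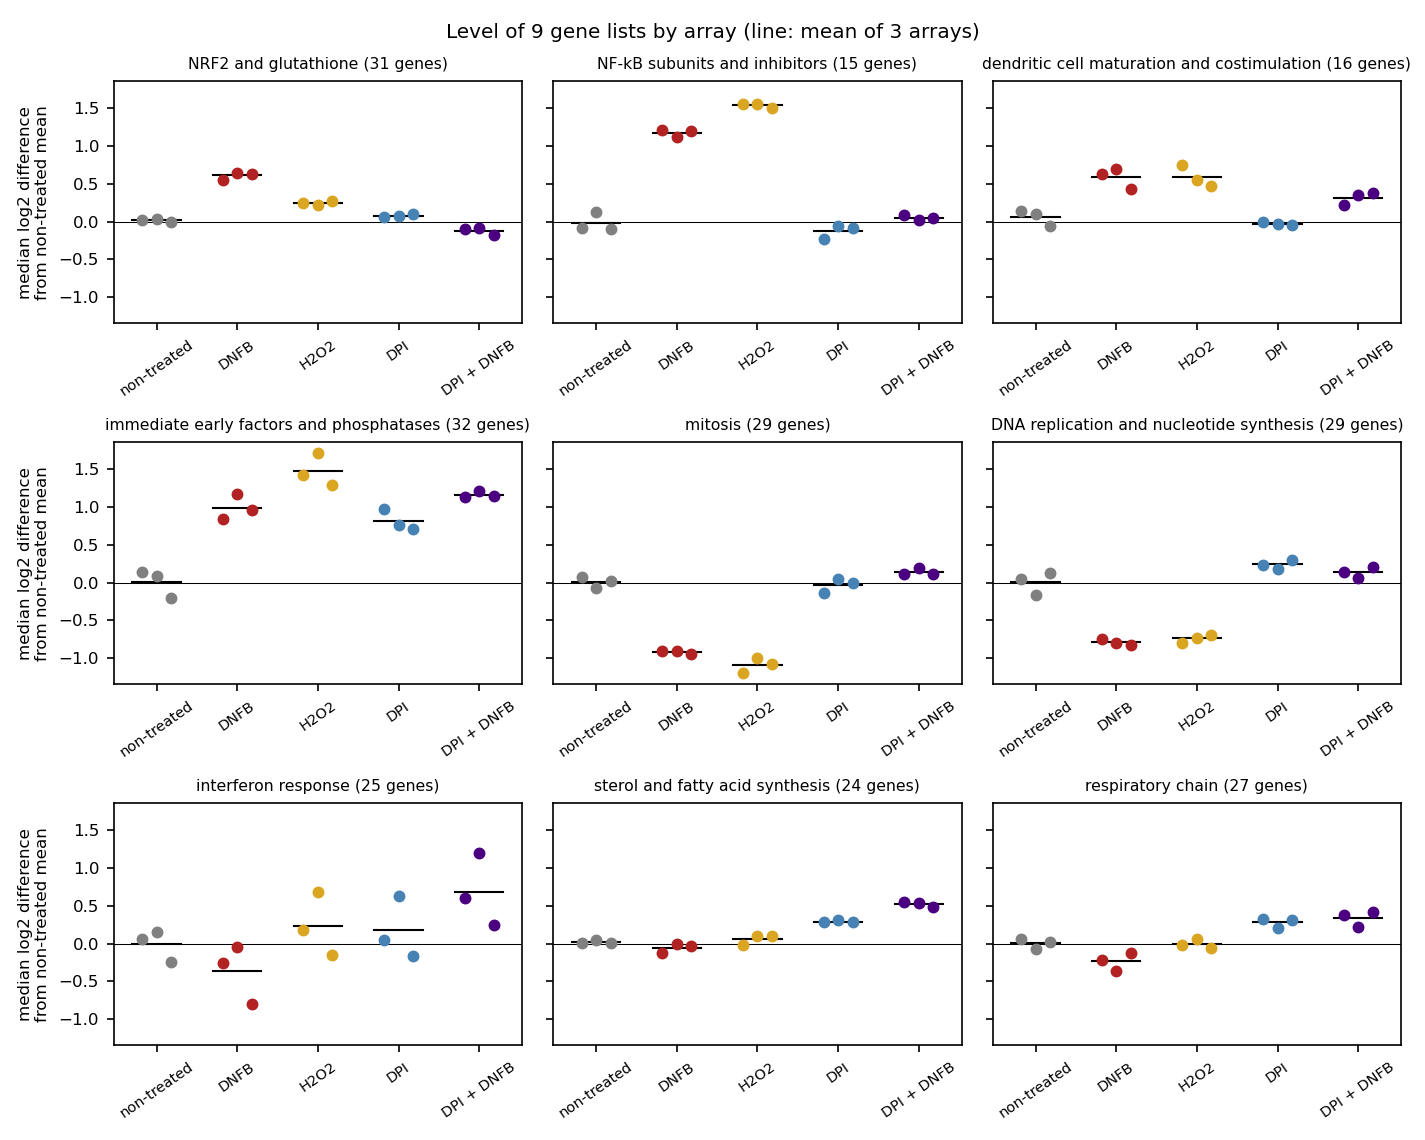
For 9 gene lists, the median over members of the log2 difference from the non-treated mean is shown on each of the 15 arrays by group, with the mean of 3 arrays as a line, all at equal trimmed means. The DNFB arrays lie below 0 and the DPI + DNFB arrays above 0 for mitosis and DNA replication, and the interferon list spreads with replicate number within each group.

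Metabolic genes were mostly higher, except those of the mitochondrial ribosome and import. Of 24 genes of sterol and fatty acid synthesis 16 were higher and 3 lower, with a median of 0.67 (-0.33 with the hybridization-spike scaling and -0.90 with the poly-A-spike scaling). Scd2, a fatty acid desaturase, was 6814, 6742 and 6022 and 29278, 26326 and 20572 (1.94 ± 0.13, adjusted p = 7.36e-10). The regulator Srebf1 was 953, 1226 and 839 and 2602, 2861 and 2819.8 (1.46 ± 0.17, adjusted p = 9.85e-07), turning to -0.12 with poly-A spikes. Squalene epoxidase (Sqle), itself a flavoenzyme, was lower (-0.59 ± 0.14), as was Msmo1 (-0.82 ± 0.22).

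Of 24 genes of glycolysis and the hypoxia response 17 were higher and 1 lower, with a median of 0.67 (-0.34 with the hybridization-spike scaling and -0.92 with the poly-A-spike scaling). The mitophagy receptor Bnip3 was 2438, 2040 and 1756 and 9184, 8516 and 6177 (1.92 ± 0.22, adjusted p = 1.06e-06). Carbonic anhydrase 9 (Car9, 1.76 ± 0.22) and the oxygen sensor Egln3 (1.45 ± 0.22) were higher, and Pfkfb3, which makes the activator of phosphofructokinase, was lower (-0.98 ± 0.22). Median centring left 9 higher members.

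Of 27 respiratory chain genes 17 were higher and 1 lower, with a median of 0.56 (-0.45 with the hybridization-spike scaling and -1.03 with the poly-A-spike scaling). The complex I subunit Ndufs7 was 2193, 2693 and 2485 and 7705, 6829.6 and 9595 (1.70 ± 0.13, adjusted p = 7.14e-09). Another subunit of the complex, Ndufs1, gave 0.05 ± 0.11 without passing. Cytochrome c1 of complex III (Cyc1) was 6415, 5972 and 7078 and 13163, 11736 and 14834 (1.02 ± 0.11), turning to -0.57 with poly-A spikes. Without DNFB replicate 1 or DPI + DNFB replicate 2, 0 members were lower. Median centring left 11 higher members. Of 22 genes of the mitochondrial ribosome and import 7 were higher and 3 lower, beside 22.9% and 21.3% over all genes. Their median was -0.0011 (-0.99 with the hybridization-spike scaling and -1.56 with the poly-A-spike scaling). The ribosomal protein Mrpl13 gave 1.11 ± 0.13 (-0.48 with poly-A spikes).

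Among NADPH oxidase subunits and other flavoenzymes, the class of proteins on which DPI acts, more were higher than lower. Of 11 listed genes 6 were higher and 1 lower, with a median of 0.71 (-0.27 with the hybridization-spike scaling and -0.83 with the poly-A-spike scaling). Ncf1, the organizer subunit p47phox, was 6247, 4969 and 4755 and 10275, 8089 and 10023 (0.83 ± 0.13, adjusted p = 2.33e-05). Cyba, the membrane subunit p22phox, was 13784, 12798 and 13711 and 22939, 25537 and 29045 (0.94 ± 0.11, adjusted p = 1.66e-06). These 2 subunits carry no flavin. Both groups were apart, and both directions turned with the hybridization spikes (-0.18 and -0.07) and the poly-A spikes (-0.76 and -0.66).

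The catalytic subunit gp91phox (Cybb) was dim, 89.4, 131 and 168 against 144, 392 and 407 (1.10 ± 0.53, adjusted p = 0.0989). Cybb passed without DPI + DNFB replicate 1 (1.56, adjusted p = 0.0308) and with only the groups compared in the fit (adjusted p = 0.0374). On the arrays scaled to 500, which hold 1 DNFB array and lack DPI + DNFB replicate 1, its difference was 1.51. Flavoenzymes of other lists were lower, among them Txnrd1, Nqo1 and Sqle. Ncf4 (p40phox) was lower by 0.37. Xanthine dehydrogenase (Xdh), a flavoenzyme that can form superoxide, was 487, 556 and 444 and 1211, 1136 and 986 (1.14 ± 0.15, adjusted p = 3.07e-06).

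Remaining groups were mixed, with 22.9% higher and 21.3% lower over all genes. Shares near these, as for lysosome and autophagy genes, are no result about a list. Of 27 lysosome and autophagy genes 5 were higher and 6 lower, led by the autophagosome protein Gabarapl1 (6405, 5829.9 and 7454 against 2212, 2592 and 2483, -1.42 ± 0.11). Without DPI + DNFB replicate 2, 10 were lower, and without DNFB replicate 2, 3 were higher. The cholesterol exporter of the lysosome Npc1 was lower by 1.08. Of 18 FOXO-linked genes 5 were higher and 6 lower, with Foxo1 at -1.92 ± 0.17 and the inhibitor of helix-loop-helix factors Id3 at 2.49 ± 0.25. The repressor Bcl6 was 1899, 2123 and 1696 and 457, 591 and 589 (-1.78 ± 0.14, adjusted p = 1.24e-08), and the cyclin Ccng2 was 1692, 2009 and 1731 and 6234, 6042 and 5775 (1.73 ± 0.10, adjusted p = 2.99e-10), both with the groups apart. The kinase Sgk1 was 1045, 1008 and 736 and 1094, 1163 and 1001 (0.24 ± 0.23, adjusted p = 0.437) and did not pass.

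Of 13 BCL2 family and caspase genes 3 were higher and 5 lower. The survival factor Mcl1 was 13184, 17185 and 13483 with DNFB and 3084, 5792 and 4234 with DPI + DNFB (-1.77 ± 0.20, adjusted p = 5.97e-07), and Bcl2 was higher by 1.05 ± 0.12, turning to -0.53 with poly-A spikes. The death-promoting BH3 proteins Bmf (-1.24 ± 0.18) and Bik (-1.22 ± 0.28) were lower. Of 12 purine receptors and enzymes of prostaglandin and leukotriene synthesis 5 were higher and 5 lower. Alox5, which starts leukotriene synthesis, was 1531, 1319 and 1506 and 3865, 3080.4 and 4260 (1.34 ± 0.12, adjusted p = 2.22e-08), and Hpgds, a prostaglandin D synthase, was lower by 1.30.

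Outside the lists, the largest falls included Havcr2 (TIM-3), an inhibitory receptor, at 3861, 4329 and 3646 with DNFB and 39.4, 137 and 144 with DPI + DNFB (-5.17 ± 0.33, adjusted p = 4.9e-10). Procr, the endothelial protein C receptor, was 9973, 8431 and 9853 and 436, 489 and 513 (-4.25 ± 0.13, adjusted p = 6.78e-15). Fam167a (-4.97 ± 0.52), the mucin Muc3 (-4.10 ± 0.49), the receptor partner Ramp3 (-3.95 ± 0.27) and the magnesium transporter Slc41a2 (-3.78 ± 0.46) complete the 12. Except for Procr and Ramp3, these genes had at least 1 DPI + DNFB array under a signal of 50, where the added 15 draws the fold toward 1.

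The largest rises outside the lists were in dim genes. Rab27a, a GTPase of secretory lysosomes, was the brightest of them, at 119, 104 and 106 with DNFB and 1127, 928 and 1059.7 with DPI + DNFB (8.44-fold, 3.08 ± 0.18, adjusted p = 2.02e-10). Lpcat4, an enzyme of phospholipid remodelling, was 68.0, 20.02 and 21.9 and 560.1, 316 and 633 (3.39 ± 0.36, adjusted p = 3.42e-07). Chtf18 (3.11 ± 0.51), which loads replication clamps, Fam160a1 (3.11 ± 0.51), Nckap5l (2.95 ± 0.49), Crtam (2.93 ± 0.53), Muc13 (2.89 ± 0.55), Spaca4 (2.88 ± 0.66) and Etv4 (2.83 ± 0.38) complete the 12 with Egr1, Egr2 and Fos. That all 3 DPI + DNFB arrays lay above all 3 DNFB arrays was a condition for the choice of the 12. The groups were apart, in either direction, for 6639 of the 12701 genes.

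The effect of DPI differed with and without DNFB. DPI against non-treated cells, a comparison that shares no array with DPI + DNFB against DNFB, gave 1694 higher (13.3%) and 2341 lower (18.4%) genes, 4035 (31.8%) in all. Of these, 1743 passed in the same direction in both comparisons, which is 31.0% of the genes called with DNFB and 43.2% of those called without, and 660 passed in opposite directions. Across the 12701 genes, which are not independent replicates, the differences correlated with Pearson's r of 0.297 and Spearman's rho of 0.269. The test of the difference itself, the interaction, passed for 2195 genes on the higher side (17.3%) and 1750 on the lower side (13.8%), 3945 (31.1%) in all. Its median over all genes was 0.14, and with median centring 1099 genes passed on the higher and 2410 on the lower side. With hybridization-spike scaling 75 genes passed on the higher and 3291 on the lower side, and with poly-A-spike scaling 10 and 3175, so that positive interactions too are relative to the bulk of each array's signal.

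**Figure D5:**
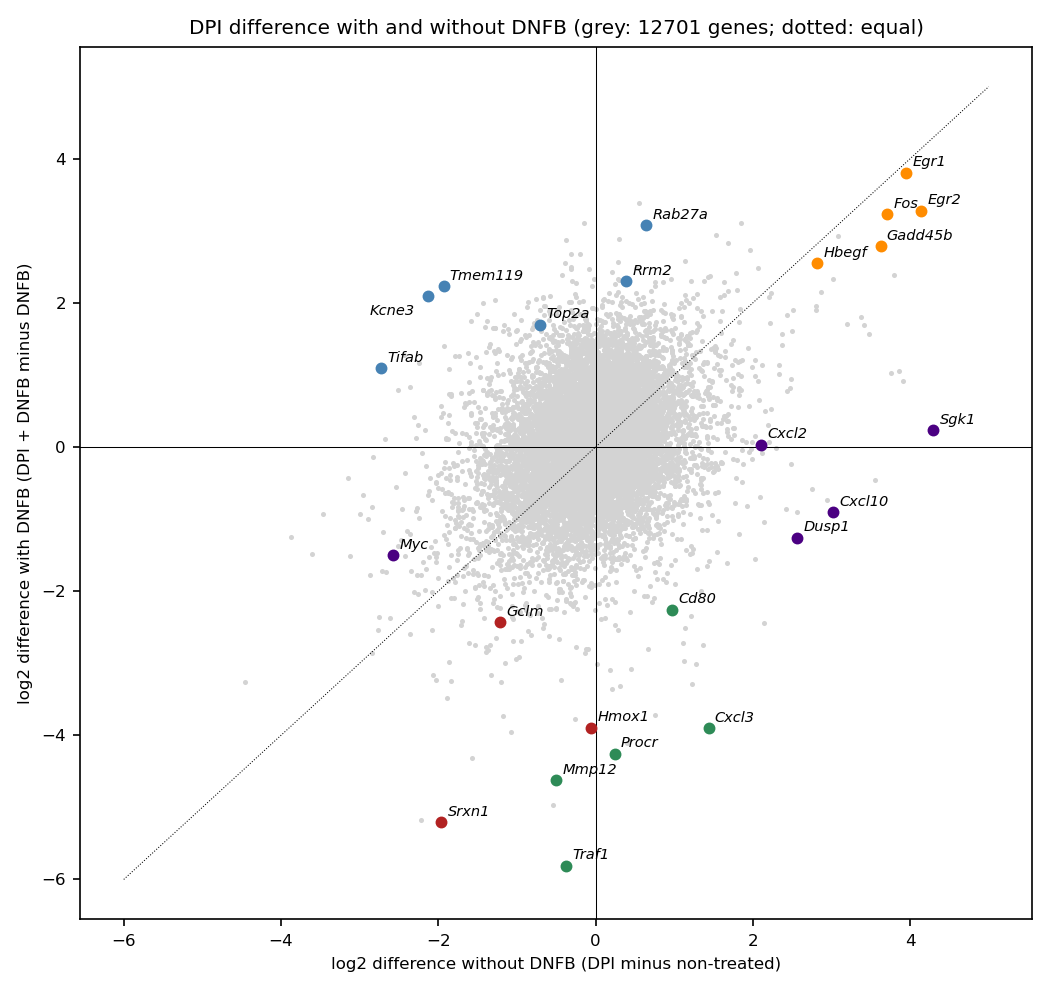
The log2 difference of DPI + DNFB from DNFB (vertical) is plotted against that of DPI from non-treated cells (horizontal) for 12701 genes at equal trimmed means, with named genes coloured and the dotted line marking equal effects. Egr1, Egr2, Fos and Hbegf lie near the line, Traf1, Hmox1, Mmp12 and Procr lie low, between -0.50 and 0.25 on the horizontal axis, and Sgk1, Cxcl10 and Dusp1 lie to the right.

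A first set fell with DPI where DNFB was present and did not pass without it. Traf1 gave -5.81 with DNFB and -0.37 without (interaction -5.44 ± 0.45, adjusted p = 4.04e-08). Hmox1 gave -3.89 and -0.06 (interaction -3.84 ± 0.39, adjusted p = 5.86e-07). Procr gave -4.25 and 0.25 (interaction -4.50 ± 0.18, adjusted p = 3.39e-12). The interaction passed for all 3. By contrast Srxn1 (-1.96), Gclm (-1.21) and Slc7a11 (-0.89) fell without DNFB too, and the interaction passed for each of them (-3.24 ± 0.18, -1.22 ± 0.20 and -1.37 ± 0.37).

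A second set rose with DPI alone and fell or did not pass with DNFB. Cxcl3 was 29.5, 41.4 and 38.6 in non-treated cells and 106, 171 and 103 with DPI (1.44 ± 0.31), against -3.90 with DNFB (interaction -5.34 ± 0.44, adjusted p = 4.5e-08). Cd80 gave 0.97 ± 0.16 without DNFB and -2.26 with it (interaction -3.23 ± 0.22). Dusp1 gave 2.57 ± 0.23 and -1.26 (interaction -3.82 ± 0.33). For Sgk1 the signals were 67.7, 98.6 and 48.7 in non-treated cells and 1351, 1829 and 1779 with DPI (4.29 ± 0.23), against 0.24 with DNFB (interaction -4.06 ± 0.33, adjusted p = 3.33e-08). Cxcl2 (2.11 ± 0.19 without, 0.03 with DNFB) and Il1b (0.90 ± 0.23 and 0.00) were of this kind, with DNFB arrays already above the non-treated ones. The interaction of Il1b (-0.89) ended when 1 array was left out, any one but DNFB replicate 2 and DPI replicate 1 of the 4 groups (-0.93 to -0.61).

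A last set fell with DPI alone and rose with DNFB present. Tmem119 was 2427, 1971 and 1775 in non-treated cells, 466, 605 and 508 with DPI, 312, 234 and 271 with DNFB and 1294, 1181 and 1522 with DPI + DNFB (interaction 4.16 ± 0.26, adjusted p = 1.86e-09). Kcne3, a potassium channel subunit, gave -2.14 and 2.09 (interaction 4.23 ± 0.75), and the G protein Gna15 gave -1.51 and 1.85 (interaction 3.36 ± 0.35). Top2a fell without DNFB (-0.71 ± 0.15) and rose with it (interaction 2.41 ± 0.21). Myc fell in both, by 2.58 without and 1.50 with DNFB (interaction 1.08 ± 0.18), from a DNFB mean (3599) that was below the non-treated mean (5751). With hybridization and poly-A spikes the interaction stayed past the threshold for Tmem119 (3.13 and 2.68), Kcne3 (3.30 and 2.91) and Gna15 (2.37 and 1.94). That of Top2a ended with poly-A spikes (0.89), and that of Myc ended with both (0.037 and -0.42).

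Lists can be set side by side in the same way. For NF-kB the medians of the DPI difference were -0.85 with and -0.14 without DNFB, and 7 of 15 members had a lower and 0 a higher interaction. For NRF2 and glutathione they were -0.77 and 0.05, with 17 of 31 lower in the interaction and 2 higher. For mitosis they were 1.19 and -0.04, with 23 of 29 higher in the interaction and 1 lower. For immediate early factors 20 of 32 rose and 3 fell with DPI alone, and for lysosome and autophagy 15 of 27 rose and 0 fell. Over all genes 13.3% rose and 18.4% fell with DPI alone, and 17.3% were higher and 13.8% lower in the interaction.

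The labelled cell type was checked against marker genes. Of 17 dendritic and Langerhans cell markers 16 were above the signal filter, and Cd74, H2-Aa and Ptprc were bright on all 6 arrays. The filter kept 27022 of the 45037 probe sets that are not controls, so passing it does not by itself set a cell type. Flt3, Zbtb46, Cd209a and Epcam were dim, with no signal above 260.2 on the 6 arrays, and Ccr7 was below the filter. The summed signal of the 17 was 106087 to 116559 on the DNFB arrays and 138489 to 148732 on the DPI + DNFB arrays. Cd74 alone entered it with 30010, 28239 and 25387 against 50960, 46603 and 54250, a rise that did not pass with quantile normalization (0.03). Of 10 keratinocyte markers 3 were above the filter, with Krt14, Krt1 and Krt10 below it, and their sums overlapped (908 to 1286 and 1027 to 1457). Cd3e, Cd3d and Cd3g of T cells and Col1a1 of fibroblasts were below the filter.

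Macrophage marker sums overlapped too (20004 to 23888 and 12741 to 23091), but the endotoxin receptor Cd14, most of the sum on the DNFB arrays, was lower by 3.32 while other members were higher. Of 9 tested, 5 were higher and 2 lower, beside 22.9% and 21.3% over all genes, with a median of 1.26. The complement chains C1qa (1452, 2329 and 2490.4 against 3523, 7729 and 7665, 1.54 ± 0.30) and C1qb (1.41 ± 0.35) and the Fc receptor Fcgr1 (448, 550 and 496 against 1116, 1527 and 1043, 1.26 ± 0.26) were higher, turning to -0.050, -0.18 and -0.30 with poly-A spikes. C1qa and C1qb were lowest on replicate 1 in every group of the series. No marker was at a signal of 0. The sums did not overlap for mast cells (1195 to 1860 and 812 to 897), for T cells (4085 to 4979 and 3469 to 3701), for B cells (1772 to 2025 and 2370 to 2633) and for endothelial cells (218 to 324 and 489 to 653). The DPI + DNFB and DNFB arrays were apart for 6639 of the 12701 genes. Kit was the largest part of the mast cell sum (1625, 1225 and 971 against 496, 472 and 368), with Cpa3, Mcpt4, Cma1, Fcer1a and Ms4a2 below the filter. Blnk made up most of the B cell sum (1862, 1753 and 1473 against 2059, 1993 and 1968). Cd28 was the largest part of the T cell sum (2302, 2145 and 2432 against 1439, 1870 and 1600). In bulk RNA a change in the share of cells with a transcript cannot be told apart from a change per cell, and the part of other cell types was not tested.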

How the data were processed

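RNA from 15 arrays of a mouse dendritic cell line, 3 in each of 5 groups, was analysed from the series value table. The deposited values are linear signal intensities that the authors made with MAS5 in Affymetrix Expression Console, per the submitters' processing notes; versions are not given in the sources used here. Arrays had 2 scaling targets (250 on 6 arrays, 500 on 9). Each array was therefore rescaled to a 2% trimmed mean of 500 over all 45101 probe sets, the 64 controls included. The controls were then set aside, 15 was added and log2 taken. Probe sets with a mean log2 signal at or above the 40th percentile (6.22) were kept (27022). Of the 45037 probe sets that are not controls, 34945 had 1 gene symbol in the platform annotation, 932 several and 9160 none. The probe set with the highest mean stood for each gene (12701).

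Group means over all 15 arrays were fitted with limma 3.58.1 (R 4.3.3, trend), with Benjamini-Hochberg adjustment over all genes tested and a threshold of 0.05. The script was tested on simulated data. Quality ratios used exact permutation tests. Named genes were the 12 largest rises and falls with a signal of at least 200 in the higher group, up to 4 passing members of each list, core genes and the 8 largest interactions each way. The largest rises, falls and interactions also had to pass and to have the DPI + DNFB and DNFB arrays apart. Predicted and unnamed genes were left out of them. A further 42 were named after their values were seen. The members and gene lists were chosen with earlier results of these data known. Alternatives covered scaling, pseudocount, filter, probe set choice, variance model, array weights, replicate block, scaling target, RNA ratios and each array left out. The spike scalings and the fit with DPI + DNFB replicate 2 alone were chosen after seeing the data. Promoters are from RefSeq, matched by symbol. H2O2 arrays entered the fit, the filter and ranges over all arrays, and no comparison.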

Additional observations from a re-analysis of the deposited data

Results flagged for a closer look

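The effect of DPI differed with and without DNFB for the genes below, by the interaction term of the limma fit at an adjusted p below 0.05. Values are the log2 difference with DNFB minus that without. Genes raised by DPI alone and with a more negative difference under DNFB were Cxcl3 (-5.34), Sgms2 (-4.58), Crisp3 (-4.52), Il23a (-4.29), Sgk1 (-4.06), Cxcl10 (-3.92), Dusp1 (-3.82), Cd80 (-3.23), Cdkn1a (-2.98), Cd83 (-2.19), Cxcl2 (-2.07), Hspa1b (-1.92), Atf3 (-1.54) and Il1b (-0.89). Genes lowered by DPI alone and with a more negative DPI difference under DNFB were Mmp12 (-4.12), Srxn1 (-3.24), Slc7a11 (-1.37) and Gclm (-1.22). In that order their mean signals were 160, 383, 101 and 1765 with DPI alone and 250, 363, 157 and 1630 with DPI + DNFB. The means with DNFB alone were 6535, 13936, 807 and 8873. Genes that did not pass with DPI alone and had a negative interaction were Traf1 (-5.44), Muc3 (-4.50), Procr (-4.50), Trib1 (-4.48), Fam167a (-4.43), Hmox1 (-3.84), Mmp10 (-3.47), Txnrd1 (-1.90), Cd86 (-0.70) and Cd40 (-0.62). Genes lowered by DPI alone and raised by DPI under DNFB were Top2a (2.41), Lmnb2 (3.33), Gna15 (3.36), Sun3 (3.41), Cbfa2t3 (3.43), Fut7 (3.71), Tifab (3.83), Tmem119 (4.16) and Kcne3 (4.23). The rise under DNFB no longer passed for Tifab without DNFB replicate 3 or DPI + DNFB replicate 1 or 2. That of Fut7 ended without DNFB replicate 1 or 3, and that of Lmnb2 without DNFB replicate 1. Median centring ended those of Tifab and Fut7. The other positive interactions were Cyba (0.64), Ncf1 (0.89), Myc (1.08) and Rrm2 (1.91). When 1 array was left out, the interaction ended for Il1b and Hspa1b without most single arrays (all but DNFB replicate 2 and DPI replicate 1 for Il1b, -0.93 to -0.61, and all but non-treated replicate 2 and DNFB replicate 1 for Hspa1b, -2.10 to -1.35). It ended for Cd86 without non-treated replicate 1 or 3, DNFB replicate 2, DPI replicate 2 or 3 or DPI + DNFB replicate 2 (-0.67 to -0.56), and for Cd40 without non-treated replicate 3, DNFB replicate 1 or DPI replicate 2 or 3 (-0.58 to -0.49). With both spike sets the values for Cyba and Ncf1 turned negative and those for Rrm2 and Myc no longer passed.

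Control probe sets, which enter no comparison of genes, stood above the other 12 arrays in the mean of the DPI + DNFB arrays. Their means were 1.95 for the beta-actin 3'/5' ratio, 1.10 for the Gapdh ratio, 13379 for the signal of hybridization spikes and 1261 for that of poly-A spikes. The highest single values of the other arrays were 1.53, 0.922, 9766 and 731.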

How the results depend on the processing

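The counts of called genes moved most with scaling and with the RNA ratios. Against 2911 higher and 2706 lower genes, the values as deposited, with arrays left at 2 scaling targets, gave 658 and 171, median centring gave 1617 higher, hybridization-spike scaling gave 112 and 6043 and poly-A-spike scaling 15 and 8083. The beta-actin covariate gave 1435 and 1469 and the Gapdh covariate 1254 and 1261. Arrays scaled to 500 by the authors gave 1771 and 1705, and DPI + DNFB replicate 2 alone gave 1740 higher. These fits leave 1 array in a group, of DNFB in the former and of DPI + DNFB in the latter, and assume that it varies like the others. Testing every probe set kept by the filter, more features by construction, gave 5083 and 5038. Leaving out 1 array gave 2512 to 2951 higher and 2386 to 2701 lower genes.

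For DPI against non-treated cells, with 4035 called, the values as deposited gave 214, every probe set 6703, an adjusted p below 0.01 gave 2678, arrays of the lower and of the higher scaling target 2326 and 2558, and the hybridization and poly-A spikes 906 and 278. Leaving out 1 array gave 3264 to 3628. For the interaction, with 3945 called, the values in the same order were 137, 6417, 2608, 2264 and 2265, with 2577 and 2160 for the beta-actin and Gapdh covariates and 3483 to 4175 without 1 array. The arrays of the lower scaling target are replicate 1 of each group and DNFB replicate 3. Their non-treated, DPI and DPI + DNFB groups thus hold 1 array each, and all spread comes from the DNFB arrays. Their counts do not show whether the calls repeat. The arrays of the higher target hold replicate 2 as the only DNFB array, which limits their interaction count too. Beyond fewer arrays, more features or a stricter threshold, the cause of these moves was not tested.

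With spike scaling, where the median of all genes moves to -0.85 and -1.39, these named genes changed sign with both spike sets: Il1b (-0.99 and -1.56), Cxcl2 (-0.97 and -1.55), Ndufs1 (-0.96 and -1.54), Hspa5 (-0.94 and -1.53), H2-Aa (-0.82 and -1.40), Sgk1 (-0.76 and -1.33), Nfkb2 (-0.72 and -1.30), Tnfaip3 (-0.55 and -1.11), Rac2 (-0.25 and -0.83), Calr (-0.19 and -0.77), Ncf1 (-0.18 and -0.76), Cd74 (-0.15 and -0.73), Npc2 (-0.13 and -0.71), Mmp9 (-0.15 and -0.70), Ifi30 (-0.10 and -0.69), Tomm40 (-0.086 and -0.66), Cyba (-0.075 and -0.66), Mrps28 (-0.073 and -0.65), Mrpl12 (-0.058 and -0.64) and Atf3 (-0.051 and -0.62). With the poly-A spikes alone the sign changed for Cyc1 (-0.57), Bcl2 (-0.53), Dnajb1 (-0.53), Hspa8 (-0.50), Mrpl13 (-0.48), H2-DMa (-0.48), Cxcr4 (-0.46), Xdh (-0.42), Tkt (-0.42), Ndufa2 (-0.39), Tifab (-0.35), Ndufa5 (-0.31), Fcgr1 (-0.30), P2ry12 (-0.26), Pold1 (-0.25), Cdkn2d (-0.25), Sun3 (-0.25), Nop56 (-0.24), Alox5 (-0.24), Ccl17 (-0.21), Fut7 (-0.20), C1qb (-0.18), Psmb8 (-0.16), Srebf1 (-0.12), Egln3 (-0.11), Psmb9 (-0.081), Ccnd3 (-0.077), C1qa (-0.050), Hspa1b (-0.027), Plk1 (-0.019), Mycn (-0.012) and Plk3 (-0.0079). With quantile normalization it changed for H2-Aa (-0.46) and Hspa5 (-0.45). The interaction changed sign with both spike sets for Ncf1 (-0.16 and -0.63) and Cyba (-0.41 and -0.87) and with the poly-A spikes for Myc (-0.42).

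The replicate numbers were not taken as pairs, since nothing in the labels says that a number marks a shared day. Deviations of same-numbered DPI + DNFB and DNFB arrays correlated at 0.091, 0.065 and 0.052. A replicate block gave 3123 higher and 2828 lower genes and an adjusted p of 0.00514 for Cybb, which did not pass without it, and 6 of 6 arrays correlated best with the array of their own number, a hint from the data and not from the design.

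Limits: 3 arrays of 1 line per group, of unstated independence, limit the precision, and RNA ratios and spike signals moved with the DPI + DNFB group. Dim genes near the filter and genes near the top of the scanner's range were measured with less certainty than the others; how much was not tested. MAS5 signals were not recomputed from probe intensities.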
